A study of Mus musculus with 16 samples.

Results

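The abundance of 10 mRNAs whose products export or store cholesterol, or belong to the liver X receptor (LXR) circuit, was measured by poly(A) RNA sequencing in livers of obese mice given Dicretin, Semaglutide, calorie restriction or saline. The genes were Abcg5, Abcg8, Abca1, Abcg1, Nr1h3, Mylip, Lpcat3, Scarb1, Soat2 and Npc1. They were chosen by name, with earlier results of these data known, and they are 10 of the 46078 genes in the count table. All 10 members passed the filter on low counts, together with the rest of the 12910 genes tested. Each library held between 40 and 3887 reads of any 1 member.

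The mice were C57BL/6 animals aged 22 weeks, from a model of diet-induced obesity and hepatic steatosis that every group, saline included, shared. Liver fat at sampling was not measured here. Dicretin, an agonist of both the GLP-1 receptor and the glucagon receptor, was given to 1 group, and Semaglutide, which acts on the GLP-1 receptor alone, to another. Another group reached an equivalent weight loss by calorie restriction, and the last received saline. Each group had 4 libraries, named below by the animal number in its label. Sex, doses and length of treatment are not given in the sources used here. Nothing in the labels states more on the animals' origin than these separate numbers, so p-values measure the spread between these samples.

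Libraries held between 12143829 and 18755393 counted reads. Dicretin libraries lay apart from all others on principal component 1, which carried 38.88% of the variance. Semaglutide 11 lay apart from its group on component 2, at 60.09 against -1.39 to 15.3 in its 3 mates. Dicretin 14 was the lowest of its group there, at -39.25 against -9.38 to 30.52 in its mates. The 7 hepatocyte markers found in the table summed to 90290 ± 7261 counts-per-million (CPM) in Dicretin, 137700 ± 11920 CPM in Semaglutide, 140600 ± 9524 CPM in calorie-restricted and 112000 ± 10740 CPM in saline livers (SD, n = 4 each). No hepatocyte marker was at 0 in any group. With Dicretin against saline 3 of the 7 rose and 1 fell, where 17.5% of all genes tested were higher and 19.2% lower. In Dicretin and saline livers Ahsg averaged 9979 and 5843 CPM, Serpina1a 3003 and 1939 CPM and Hnf4a 784.4 and 445.6 CPM. Alb, the most abundant of the 7, averaged 59620 and 81650 CPM. The lower sum with Dicretin therefore rests mostly on Alb. The 12 Kupffer cell and macrophage markers summed to between 300.6 and 832.2 CPM in Dicretin, between 157.3 and 582.5 CPM in Semaglutide, between 109.3 and 381 CPM in calorie-restricted and between 321 and 513.7 CPM in saline livers, and none of them was at 0 in any group. Bulk liver RNA was measured, so fewer cells of a type and less RNA per cell cannot be told apart.

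The liver disposes of cholesterol by secreting it into bile or by loading it onto lipoproteins. ABCG5 and ABCG8 form a heterodimer in the canalicular membrane that secretes sterols into bile, whereas ABCA1 and ABCG1 hand cholesterol to apolipoprotein A-I and to high-density lipoprotein (HDL). LXRα, encoded by Nr1h3, senses oxysterols, pairs with a retinoid X receptor and switches on Abcg5, Abcg8, Abca1, Abcg1, Mylip and Lpcat3. Scarb1, Soat2 and Npc1 are grouped with them because their products take up, esterify or release cholesterol.

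The genomic neighbourhood of the sterolin genes bears on how their values are read, and so the bases between them are shown first. Abcg5 (ENSMUSG00000040505) lies on chromosome 17 from 84658234 to 84683011 on the minus strand, and Abcg8 (ENSMUSG00000024254) on the same chromosome from 84676302 to 84700333 on the plus strand (GRCm38). They are transcribed away from each other, and their annotated exons share 82 bases on opposite strands, since an upstream start of Abcg8 lies inside Abcg5. The 109 bases between the RefSeq starts that face each other, chr17:84683012-84683120 on the plus strand of GRCm38.p6, are printed with the reverse complement of AGATAA, the letters read by GATA factors, in capitals.
Abcg5-Abcg8 intergenic: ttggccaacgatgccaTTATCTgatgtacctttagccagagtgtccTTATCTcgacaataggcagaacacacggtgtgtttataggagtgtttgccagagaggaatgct
The 250 bases upstream of the RefSeq start of Abca1, chr4:53159896-53160145 on the minus strand of GRCm38.p6, follow. Their capitals mark the best match to the DR4 motif, the direct repeat read by LXR with its partner.
Abca1 upstream: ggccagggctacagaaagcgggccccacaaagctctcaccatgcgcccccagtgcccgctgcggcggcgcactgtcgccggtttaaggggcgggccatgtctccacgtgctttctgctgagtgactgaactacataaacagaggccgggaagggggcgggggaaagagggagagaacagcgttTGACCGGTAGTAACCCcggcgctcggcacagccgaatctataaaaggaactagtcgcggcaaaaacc

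Promoter windows of 300 bases, from 250 before a RefSeq start to 50 after it, were held for 6 of the 10 members, in 8 windows. DR4, spelled as AGGTCA, 4 bases of any kind and AGGTCA again, was searched on both strands with up to 2 mismatches in its 12 fixed bases. It matched 0 of the 8 member windows and 3.02% of all 32851 windows. With 3 mismatches allowed, a search added after that result was seen, the Abca1 window matched at positions -67 to -52 from the start, as did 21.9% of all windows. The sterol regulatory element TCACNCCAC and the cyclic AMP response element TGACGTCA, searched on both strands with no mismatch, matched 0 of the 8 windows, against 1.24% and 1.79% of all windows. AGATAA, also searched on both strands and added later, occurred in 2 of the 8 windows, those at the facing starts of Abcg5 and Abcg8, and in 11.2% of all windows. The facing windows overlap, so these are matches in shared bases. A match is only a description of the letters, and a missing one says nothing of binding elsewhere.

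**Figure D1:**
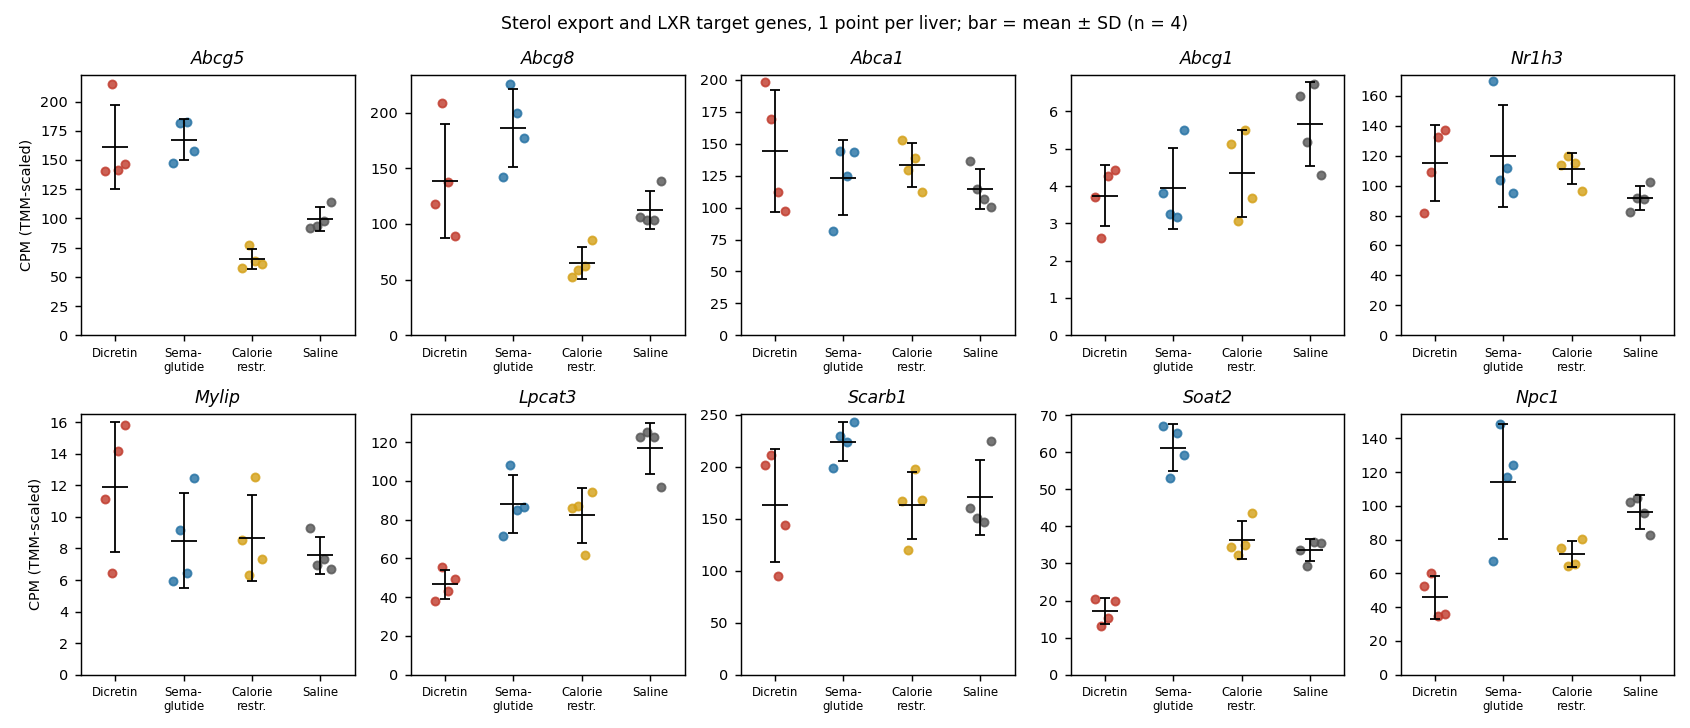
Expression of the 10 genes in each liver, in CPM on a linear axis that starts at 0, by group, with 1 point per library and the group mean ± SD (n = 4). Abcg5 and Abcg8 were lowest in the calorie-restricted livers, while Soat2 was highest in all 4 Semaglutide livers and lowest in all 4 Dicretin livers.

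Against saline, 4 of the 10 genes passed the test in Dicretin livers, 2 in Semaglutide livers and 2 in calorie-restricted livers (edgeR's quasi-likelihood test, Benjamini-Hochberg adjusted p under 0.05 over all genes). Abcg5 rose and Lpcat3, Soat2 and Npc1 fell with Dicretin. Abcg5 and Soat2 rose with Semaglutide, and Abcg5 and Abcg8 fell with calorie restriction. Of all genes tested, 36.7% passed between Dicretin and saline, 4.18% between Semaglutide and saline and 7.53% between calorie restriction and saline. By direction, 17.5% of all genes were higher and 19.2% lower with Dicretin, 1.56% higher and 2.62% lower with Semaglutide, and 3.42% higher and 4.11% lower with calorie restriction. The Dicretin count is therefore near the share over all genes, while the other counts lie above theirs, with 2 genes each. The 3 comparisons use the same 4 saline livers.

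Between the weight-losing groups, 5 of the 10 genes passed between Dicretin and calorie restriction, against 31.3% of all genes. Abcg5 and Abcg8 were higher in Dicretin livers, and Lpcat3, Soat2 and Npc1 were lower. Between Semaglutide and calorie restriction 3 passed, against 6.12% of all genes, and Abcg5, Abcg8 and Soat2 were higher in Semaglutide livers. Between Dicretin and Semaglutide 3 passed, against 32% of all genes, a share close to that of the genes at large, and Lpcat3, Soat2 and Npc1 were lower in Dicretin livers. By direction, 15.1% of all genes were higher and 16.2% lower in Dicretin than in calorie-restricted livers, 3.05% higher and 3.07% lower in Semaglutide than in calorie-restricted livers, and 14.8% higher and 17.1% lower in Dicretin than in Semaglutide livers. Abca1, Abcg1, Nr1h3, Mylip and Scarb1 passed in none of the 6 comparisons. The median log2 fold change over the 10 genes was 0.11 for Dicretin, 0.32 for Semaglutide and -0.22 for calorie restriction against saline, beside -0.01, 0.00 and -0.01 over all genes. It was 0.02 for Dicretin against calorie restriction, 0.28 for Semaglutide against calorie restriction and -0.25 for Dicretin against Semaglutide, beside -0.00, 0.00 and -0.01 over all genes.

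**Figure D2:**
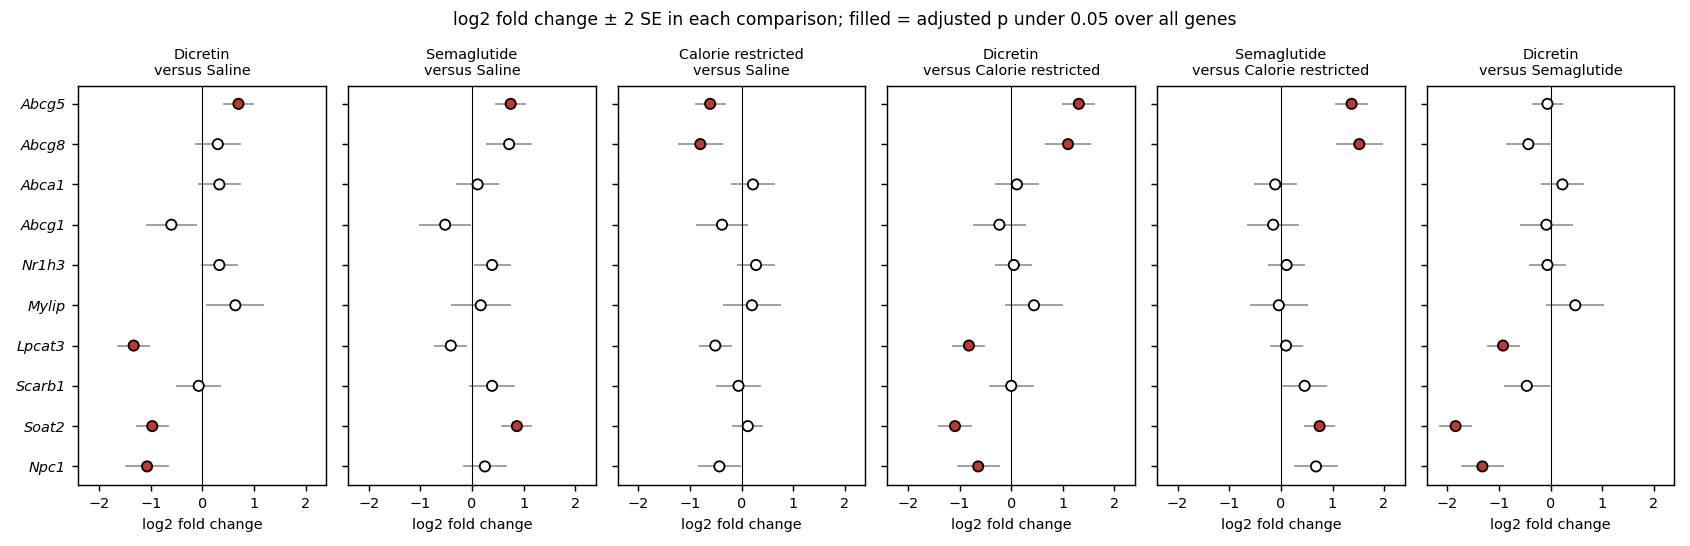
Log2 fold changes of the 10 genes in the 6 comparisons, with bars of 2 standard errors; filled points passed at an adjusted p under 0.05. Abcg5 passed in 5 comparisons, with log2 fold changes from -0.61 to 1.37, and Soat2 in 5, from -1.84 to 0.87.

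Abcg5, which encodes one part of the sterolin heterodimer, stood at 140.8, 215.2, 141.5 and 146.5 CPM in Dicretin livers 14, 23, 64 and 65. It stood at 147.8, 181.8, 182.7 and 157.8 CPM in Semaglutide livers 11, 15, 31 and 51, and at 57.93, 77.37, 63.39 and 61.39 CPM in calorie-restricted livers 7, 8, 52 and 79. The saline livers 35, 50, 73 and 78 held 91.72, 93.75, 97.91 and 114.1 CPM. Every Dicretin and Semaglutide liver was above every saline liver, and every calorie-restricted liver was below. The log2 fold change against saline was 0.70 ± 0.15 with Dicretin (SE, adjusted p = 0.00167), 0.75 ± 0.15 with Semaglutide (adjusted p = 0.00754) and -0.61 ± 0.15 with calorie restriction (adjusted p = 0.0201). The first 2 calls held in every fit that left out a library. The last was lost without calorie-restricted liver 7, 52 or 79 or saline liver 73 or 78, where the log2 fold change lay between -0.60 and -0.54 and the adjusted p between 0.0526 and 0.0826.

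Abcg5 was also higher in both drug groups than in the calorie-restricted livers. Its mean was 161 ± 36.2 CPM with Dicretin and 65.0 ± 8.54 CPM with calorie restriction (SD, n = 4 each), a log2 fold change of 1.31 ± 0.16 (adjusted p = 4.98e-06). Semaglutide livers averaged 167.5 ± 17.5 CPM, and their log2 fold change against calorie restriction was 1.37 ± 0.16 (adjusted p = 3.89e-05). Dicretin and Semaglutide livers did not differ beyond their spread, with a log2 fold change of -0.06 and an interval of 2 SE from -0.36 to 0.25. The order of the means was thus Semaglutide, Dicretin, saline and calorie restriction, and of the neighbours only Semaglutide and Dicretin did not differ beyond their spread.

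Abcg8, the partner in the heterodimer, stood at 117.9, 208.9, 137.7 and 89.46 CPM in Dicretin livers 14, 23, 64 and 65. Semaglutide livers 11, 15, 31 and 51 held 142.6, 225.5, 199.8 and 177 CPM, and calorie-restricted livers 7, 8, 52 and 79 held 52.73, 58.28, 62.39 and 85.91 CPM. Saline livers 35, 50, 73 and 78 held 106.3, 103.4, 103.6 and 138.5 CPM. Semaglutide livers all lay above saline livers and calorie-restricted livers all below, whereas Dicretin livers overlapped saline livers. The log2 fold change against saline was 0.30 ± 0.22 with Dicretin (interval -0.15 to 0.74, adjusted p = 0.316) and 0.72 ± 0.22 with Semaglutide (adjusted p = 0.0752). It was -0.80 ± 0.22 with calorie restriction (adjusted p = 0.0345). That call was lost without any 1 of the 4 saline livers or of calorie-restricted livers 7, 8 and 52, with adjusted p between 0.0637 and 0.121. The Semaglutide difference passed without Semaglutide liver 11, at 0.83 (adjusted p = 0.0476), and with that liver and Dicretin liver 14 both left out (0.0475). It also passed with DESeq2 (adjusted p = 0.0309), with only these groups in the edgeR fit (0.0265) and without Dicretin liver 23 (0.0318) or 65 (0.0433). Against calorie restriction, Abcg8 was higher by 1.10 ± 0.22 with Dicretin (adjusted p = 0.0012) and by 1.52 ± 0.23 with Semaglutide (adjusted p = 0.000539), on the log2 scale. Dicretin against Semaglutide gave -0.43 ± 0.22 (adjusted p = 0.154), and -0.68 without Dicretin liver 23 (adjusted p = 0.0173).

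The partners were also set against each other within each liver, a ratio that does not depend on library scaling. The log2 ratio of Abcg5 to Abcg8 reads averaged 0.26 ± 0.32 in Dicretin, -0.14 ± 0.15 in Semaglutide, 0.02 ± 0.37 in calorie-restricted and -0.18 ± 0.09 in saline livers (SD, n = 4 each). All 4 Dicretin livers lay above all 4 saline livers, a difference of 0.44 with a two-sided exact permutation p of 0.0286, the smallest that 4 against 4 can give. Adjusted over the 6 comparisons it was 0.171, and none of the 6 passed. The next difference, 0.40 between Dicretin and Semaglutide, had an exact permutation p of 0.0857 (adjusted 0.257). Per kilobase of exon, the mean level of Abcg5 was above that of Abcg8 in every group, at 59.4 and 36.9 CPM per kilobase in Dicretin livers and 36.6 and 30.1 CPM per kilobase in saline livers. In CPM the mean of Abcg8 was the higher in Semaglutide livers (186.2 against 167.5) and saline livers (112.9 against 99.4). The order per kilobase in these groups therefore rests on the merged annotated exon lengths, 2712 bases for Abcg5 and 3749 for Abcg8. Without a stated strand setting in counting, reads over the 82 shared exon bases cannot be assigned to 1 gene with certainty.

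**Figure D3:**
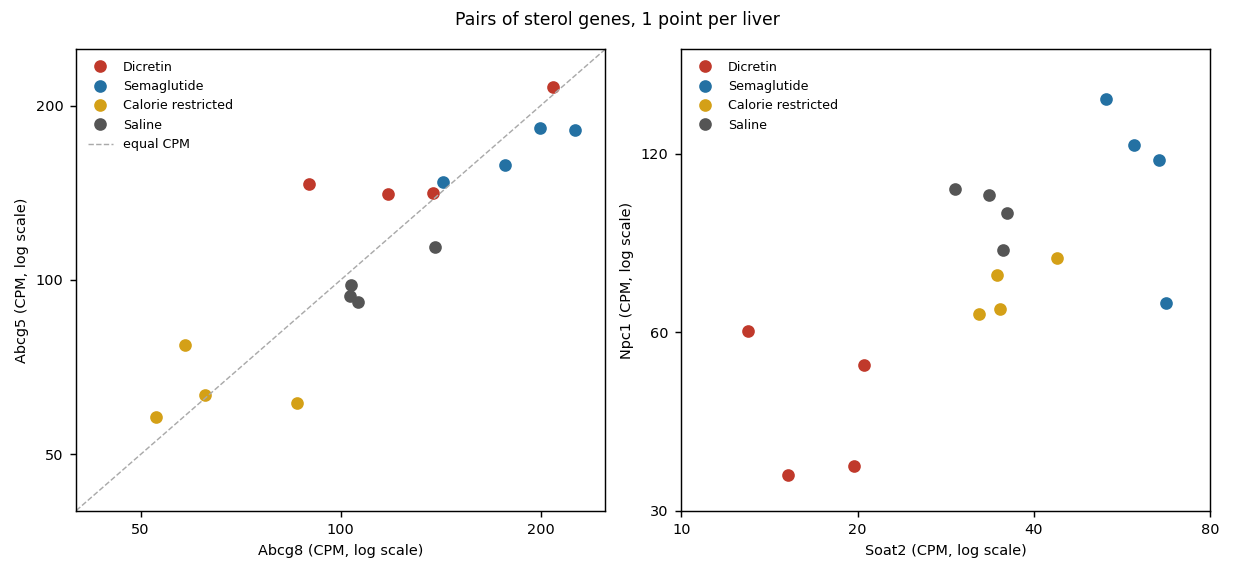
Left, Abcg5 against Abcg8, and right, Npc1 against Soat2, in CPM on log axes, with 1 point per liver coloured by group and, on the left, a dashed line of equal CPM. Calorie-restricted livers sit lowest on the left, at or below 77.37 CPM of Abcg5, and Dicretin livers sit lowest on the right, at or below 20.51 CPM of Soat2.

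Soat2 encodes ACAT2, the enzyme that esterifies cholesterol in hepatocytes for storage and for lipoprotein assembly. It stood at 20.51, 13, 15.24 and 19.74 CPM in Dicretin livers 14, 23, 64 and 65, and at 67.27, 53.09, 65.38 and 59.35 CPM in Semaglutide livers 11, 15, 31 and 51. Calorie-restricted livers 7, 8, 52 and 79 held 34.57, 32.23, 35.02 and 43.76 CPM, and saline livers 35, 50, 73 and 78 held 33.55, 29.37, 35.93 and 35.4 CPM. Each drug group lay wholly outside the saline range, Dicretin below it and Semaglutide above it. The log2 fold change against saline was -0.97 ± 0.16 with Dicretin (adjusted p = 0.000107), 0.87 ± 0.15 with Semaglutide (adjusted p = 0.0031) and 0.12 ± 0.15 with calorie restriction (interval -0.19 to 0.42, adjusted p = 0.695). Between the drugs the log2 fold change, Dicretin over Semaglutide, was -1.84 ± 0.16, a fold of 3.58 (adjusted p = 1.09e-07). Against calorie restriction it was -1.09 ± 0.16 with Dicretin (adjusted p = 4.25e-05) and 0.75 ± 0.15 with Semaglutide (adjusted p = 0.00698). The 5 calls on Soat2 held in every fit that left out a library. The gene (ENSMUSG00000023045) lies on chromosome 15 from 102150526 to 102163469 on the plus strand.

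Npc1 encodes the membrane protein that releases cholesterol from late endosomes and lysosomes. It stood at 52.76, 60.36, 34.42 and 35.68 CPM in Dicretin livers 14, 23, 64 and 65, and at 67.2, 148.7, 116.9 and 124 CPM in Semaglutide livers 11, 15, 31 and 51. Calorie-restricted livers 7, 8, 52 and 79 held 74.93, 64.46, 65.58 and 80.16 CPM, and saline livers 35, 50, 73 and 78 held 102.2, 104.7, 95.46 and 82.46 CPM. All Dicretin livers were below every liver of the other groups. The log2 fold change with Dicretin was -1.07 ± 0.21 against saline (adjusted p = 0.00072), -1.32 ± 0.21 against Semaglutide (adjusted p = 0.000124) and -0.64 ± 0.21 against calorie restriction (adjusted p = 0.0282). The last call was lost without Dicretin liver 64 or 65 or calorie-restricted liver 7 or 79, with adjusted p between 0.0671 and 0.0927. Semaglutide against saline gave 0.25 ± 0.21 (adjusted p = 0.561) and calorie restriction against saline -0.43 ± 0.21 (adjusted p = 0.225). Semaglutide against calorie restriction gave 0.68 ± 0.21 (adjusted p = 0.0615), and without Semaglutide liver 11, the lowest of its group, 0.87 (adjusted p = 0.00781). This difference also passed without Dicretin liver 14 (0.0471), with both livers left out (0.00383), with DESeq2 (0.0277) and with upper quartile scaling (0.0473). In the other settings it did not pass.

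Npc1 (ENSMUSG00000024413) lies on chromosome 18 from 12189692 to 12236400 on the minus strand, and 511 of its exon bases are shared with Rmc1 on the opposite strand. Rmc1 had a log2 fold change of -0.01 between Dicretin and saline (adjusted p = 0.953), where Npc1 had -1.07. Dicretin against Semaglutide gave -0.41 for Rmc1 (adjusted p = 0.0294), a call lost under 8 of the alternative settings, against -1.32 for Npc1.

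Npc2, whose soluble product passes cholesterol to the NPC1 protein inside the lysosome, went the other way with Dicretin. It averaged 119 ± 28.7 CPM in Dicretin and 80.4 ± 6.78 CPM in saline livers (SD, n = 4 each), a log2 fold change of 0.56 ± 0.19 (adjusted p = 0.0251). The call was lost without Dicretin liver 64 (adjusted p = 0.0778) or 65 (adjusted p = 0.0764) or saline liver 73 (adjusted p = 0.0673). The gene was picked out for description after its value was seen.

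Lpcat3 encodes the lysophospholipid acyltransferase that builds polyunsaturated phosphatidylcholine. It stood at 38.08, 55.41, 43.29 and 49.45 CPM in Dicretin livers 14, 23, 64 and 65, and at 71.77, 108.2, 85.21 and 86.52 CPM in Semaglutide livers 11, 15, 31 and 51. Calorie-restricted livers 7, 8, 52 and 79 held 85.9, 86.92, 61.66 and 94.39 CPM, and saline livers 35, 50, 73 and 78 held 122.4, 125.1, 122.5 and 96.85 CPM. Dicretin livers lay below all others, and calorie-restricted livers below saline livers. With Dicretin the log2 fold change was -1.33 ± 0.16 against saline (adjusted p = 6.47e-06), -0.92 ± 0.16 against Semaglutide (adjusted p = 0.000313) and -0.82 ± 0.16 against calorie restriction (adjusted p = 0.000972). These calls held in every fit that left out a library. Against saline, calorie restriction gave -0.51 ± 0.16 (adjusted p = 0.0624) and Semaglutide -0.41 ± 0.16 (adjusted p = 0.17). The calorie-restriction difference passed without Semaglutide liver 11 (adjusted p = 0.0393) or Dicretin liver 14 (adjusted p = 0.0477), at log2 fold changes of -0.50 and -0.49. It also passed with both livers left out (0.0184), with DESeq2 (0.0345) and with upper quartile scaling (0.0467). With only these groups in the edgeR fit it passed as well (0.0149), and in the other settings it did not. Semaglutide and calorie-restricted livers had means of 87.9 and 82.2 CPM and an interval of the log2 fold change from -0.23 to 0.42.

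Lpcat3 (ENSMUSG00000004270), on chromosome 6 from 124663027 to 124704418 on the plus strand, shares 334 exon bases with Emg1 on the opposite strand. Emg1 had a log2 fold change of 0.56 between Dicretin and saline (adjusted p = 0.0771), of opposite sign to that of Lpcat3. Without Dicretin liver 14 it passed, at 0.77 (adjusted p = 0.0115), and without Semaglutide liver 11 at 0.56 (adjusted p = 0.0226). With both left out it passed at 0.75 (adjusted p = 0.000239).

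Abca1, which lipidates apolipoprotein A-I in the first step of HDL formation, did not pass in any comparison. It stood at 198.4, 169.1, 112.1 and 97.51 CPM in Dicretin livers 14, 23, 64 and 65, and at 81.45, 144.5, 124.5 and 143.5 CPM in Semaglutide livers 11, 15, 31 and 51. Calorie-restricted livers 7, 8, 52 and 79 held 152.8, 129.6, 139 and 112.2 CPM, and saline livers 35, 50, 73 and 78 held 136.2, 114.5, 106.6 and 100.7 CPM. All 4 groups overlapped. The largest log2 fold change was 0.33 ± 0.21, for Dicretin against saline, with an interval from -0.09 to 0.76 (adjusted p = 0.235). The gene (ENSMUSG00000015243) lies on chromosome 4 from 53030787 to 53159895 on the minus strand.

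Nr1h3, the gene of LXRα itself, averaged 115 ± 25.5 CPM in Dicretin, 120 ± 34.0 CPM in Semaglutide, 111 ± 10.2 CPM in calorie-restricted and 91.8 ± 8.25 CPM in saline livers (SD, n = 4 each). Against saline its log2 fold changes were 0.33 ± 0.18, 0.39 ± 0.18 and 0.28 ± 0.18 for Dicretin, Semaglutide and calorie restriction, with adjusted p of 0.171, 0.264 and 0.387. Semaglutide liver 11 held 169.9 CPM, and its 3 mates between 94.85 and 111.7 CPM. Dicretin liver 14 held 81.84 CPM, and its mates between 109.1 and 137.3 CPM. Without Dicretin liver 14, Nr1h3 passed between Dicretin and saline with a log2 fold change of 0.48 (adjusted p = 0.0407). With that liver and Semaglutide liver 11 both left out it passed at 0.46 (adjusted p = 0.00392), and it did not pass in the other settings. Nr1h3 (ENSMUSG00000002108) lies on chromosome 2 from 91184061 to 91202834 on the minus strand.

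Mylip encodes an E3 ligase, also called IDOL, that marks the LDL receptor for degradation. It averaged 11.9 ± 4.12 CPM in Dicretin, 8.50 ± 3.01 CPM in Semaglutide, 8.69 ± 2.73 CPM in calorie-restricted and 7.58 ± 1.16 CPM in saline livers. Dicretin against saline gave 0.64 ± 0.28 (adjusted p = 0.0828), and without Dicretin liver 23, at 6.467 CPM the lowest of its group, 0.87 (adjusted p = 0.0199), as log2 fold changes. Its mates held between 11.14 and 15.85 CPM. The groups overlapped in all 6 comparisons. Mylip (ENSMUSG00000038175) lies on chromosome 13 from 45389742 to 45412022 on the plus strand.

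Abcg1, which passes cholesterol to HDL and is prominent in macrophages, was the least abundant member. It averaged 3.75 ± 0.825 CPM in Dicretin, 3.94 ± 1.09 CPM in Semaglutide, 4.34 ± 1.17 CPM in calorie-restricted and 5.66 ± 1.13 CPM in saline livers. Its log2 fold change with Dicretin was -0.60 ± 0.25 (adjusted p = 0.0709), and those with Semaglutide and calorie restriction were -0.52 ± 0.25 (adjusted p = 0.274) and -0.38 ± 0.25 (adjusted p = 0.396). Per kilobase of exon its mean was 0.513 CPM with Dicretin and 0.775 CPM with saline, against 13.9 and 11.1 CPM per kilobase for Abca1. The summed macrophage markers averaged 544 ± 241 CPM in Dicretin and 424 ± 83.6 CPM in saline livers. Of these 12 markers 0 passed, beside 36.7% of all genes. Their part in the level of Abcg1 was not tested. Abcg1 (ENSMUSG00000024030) lies on chromosome 17 from 31057675 to 31117988 on the plus strand.

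Scarb1 encodes the HDL receptor that takes up cholesteryl ester into the hepatocyte. It averaged 162.8 ± 54.4 CPM in Dicretin, 223.8 ± 18.7 CPM in Semaglutide, 163 ± 32.2 CPM in calorie-restricted and 170.5 ± 36.3 CPM in saline livers. Semaglutide livers, at 198.7 to 243.4 CPM, all lay above the calorie-restricted livers, at 119.6 to 197.5 CPM, but the log2 fold change of 0.46 ± 0.22 did not pass (adjusted p = 0.214). Against saline the log2 fold changes were -0.07, 0.39 and -0.06 for Dicretin, Semaglutide and calorie restriction. Leaving out saline liver 78, at 224.4 CPM the highest of its group, turned the Dicretin value to 0.10 and the calorie-restriction value to 0.10. Scarb1 (ENSMUSG00000037936) lies on chromosome 5 from 125277087 to 125341094 on the minus strand.

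Members whose livers did not overlap between the groups numbered 4 of 10 for Dicretin, 3 for Semaglutide and 4 for calorie restriction against saline, where 34.2%, 14.2% and 22.9% of all genes did so. Of these, Npc1 and Lpcat3 with calorie restriction and Abcg8 with Semaglutide had not passed the test. In the 3 remaining comparisons 5, 4 and 3 members were separate, for Dicretin against calorie restriction, Semaglutide against calorie restriction and Dicretin against Semaglutide, beside 28.4%, 15.6% and 26.2% of all genes.

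Likeness of pattern was measured as the root mean square difference of log2 CPM over the 16 libraries, each gene centred on its own mean. The nearest gene to Abcg8 was Abcg5, at 0.284, followed by Gabarapl1, Pcbp4, Dcaf6 and Hmga1 at 0.329 to 0.388, with a median of 0.762 over all genes. Seen from Abcg5, Abcg8 ranked second behind P2rx4 at 0.283, and Rcl1, Jade1 and Eva1a followed at 0.293 to 0.334, with a median of 0.731. Abca1, which ranged from 81.45 to 198.4 CPM, was nearest to Ints3, Slc4a2, Bmpr2, Plekha6 and Pik3ca at 0.128 to 0.168, with a median of 0.528. No other member was among its 5 nearest genes. The measure favours genes of small variation and says nothing of shared control.

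Of 10 tested receptors and cofactors that work with LXRα, 2 rose and 2 fell with Dicretin against saline. That share is near the 36.7% of all genes that passed there. With Semaglutide and with calorie restriction 0 passed, beside 4.18% and 7.53% of all genes. Nr1h2, which encodes LXRβ, averaged 43.4 ± 2.81 CPM in Dicretin and 27.2 ± 1.74 CPM in saline livers, a log2 fold change of 0.67 ± 0.14 (adjusted p = 0.00121). Rxrb rose as well, by 0.54 ± 0.16 (adjusted p = 0.0135), while Rxrg fell by 1.74 (adjusted p = 2.34e-05) and the co-repressor exchange factor Tbl1xr1 by 1.45 (adjusted p = 8.48e-05), on the log2 scale. Rxra, the main hepatic retinoid X receptor, had -0.34 ± 0.23 (adjusted p = 0.276), and -0.51 with Semaglutide liver 11 and Dicretin liver 14 left out (adjusted p = 0.0144). The median over the list was 0.13 with Dicretin, -0.20 with Semaglutide and -0.03 with calorie restriction.

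Among further LXR targets, of which 18 of the 20 listed were tested, 0 rose and 7 fell with Dicretin against saline, with a median log2 fold change of -0.53. Of all genes 36.7% passed there, near the share of 7 in 18, with 17.5% higher and 19.2% lower. Srebf1, the fatty acid synthesis regulator and a classic LXR target, had -2.74 ± 0.36 against calorie restriction (adjusted p = 1.69e-05) and -2.75 ± 0.36 against Semaglutide (adjusted p = 1.6e-05). Against saline it had -2.50. Nr0b2, the bile acid-induced repressor SHP, fell by 1.45 on the log2 scale against saline (adjusted p = 0.00134) and the lipid droplet coat gene Plin2 by 1.13 (adjusted p = 0.00233). Cyp7a1, also among the 7 that fell, averaged 4.49 ± 4.92 CPM in Dicretin and 119.9 ± 25.2 CPM in saline livers (SD, n = 4 each). With Semaglutide 2 of 18 fell, Plin2 by 1.35 and the phospholipid transfer protein gene Pltp by 1.46 (adjusted p = 0.00543 each), with a median of -0.19. With calorie restriction 1 of 18 fell, Pltp (log2 fold change -0.99, adjusted p = 0.0356), with a median of -0.33. That call was lost in 8 of the other settings. Of all genes, 2.62% were lower with Semaglutide and 4.11% with calorie restriction than with saline.

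Among 17 genes of intracellular sterol handling, 3 rose and 5 fell with Dicretin against saline, beside 17.5% of all genes higher and 19.2% lower, with a median of -0.04. The sterol carriers Stard5 and Stard4 fell by 1.16 (adjusted p = 4.14e-05) and by 1.41 (adjusted p = 0.00852) on the log2 scale, and the oxysterol-binding protein gene Osbpl1a by 0.71 (adjusted p = 0.000467). With Semaglutide 0 of 17 passed, beside 4.18% of all genes, and the median was 0.03. With calorie restriction 2 rose and 1 fell, beside 3.42% of all genes higher and 4.11% lower, with a median of -0.15. There Nceh1, a cholesteryl ester hydrolase, averaged 25.2 ± 1.5 CPM against 50.4 ± 3.10 CPM in saline livers (log2 fold change -1.0 ± 0.19, adjusted p = 0.00302). The genes that rose with calorie restriction were Gramd1c and Osbpl8. The Gramd1c call was lost without calorie-restricted liver 7 (adjusted p = 0.059). The Osbpl8 call was lost without calorie-restricted liver 7 or 52 or saline liver 50, 73 or 78, with adjusted p between 0.0744 and 0.0895. Lipa, the lysosomal acid lipase, was lower in both drug groups than in calorie-restricted livers, with log2 fold changes of -0.86 for Dicretin (adjusted p = 0.00124) and -0.78 for Semaglutide (adjusted p = 0.0122).

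Of 12 tested HDL genes around Abca1 and Scarb1, 3 rose and 4 fell with Dicretin, 2 rose and 2 fell with Semaglutide, and 1 rose and 2 fell with calorie restriction, with medians of -0.27, 0.05 and -0.14. Of all genes 36.7%, 4.18% and 7.53% passed in the same comparisons. Of the 3 calorie-restriction calls, that on the fatty acid carrier gene Cd36 was lost in 14 of the other settings and that on Apom in 5. Pdzk1, the scaffold that holds the Scarb1 protein at the membrane, averaged 9.72 ± 1.97 CPM in Dicretin and 31.1 ± 5.01 CPM in saline livers (log2 fold change -1.68 ± 0.21, adjusted p = 7.52e-06), while Scarb1 itself had -0.07. Apom, an HDL apolipoprotein, rose by 1.55 with Dicretin (adjusted p = 3.81e-05) and by 1.62 with Semaglutide (adjusted p = 0.000549). Apoa4 averaged 2292 ± 981 CPM with Dicretin against 225 ± 45.3 CPM with calorie restriction, a log2 fold change of 3.35 ± 0.36 (adjusted p = 1.48e-06). In the comparisons with saline, it fell by 2.20 with Semaglutide (adjusted p = 0.00104) and by 2.1 with calorie restriction (adjusted p = 0.000976).

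A list of 11 tested genes covers sterol uptake, biliary secretion and transcription factors such as those encoded by Nr5a2 and Hnf4a. Of these genes, 2 rose and 3 fell with Dicretin against saline, 1 rose with Semaglutide and 2 rose with calorie restriction. The medians were 0.05, 0.08 and 0.30. Of all genes 36.7%, 4.18% and 7.53% passed in these comparisons. The nuclear receptor genes Nr5a2 and Hnf4a, whose human counterparts act on the promoters of the sterolin genes, rose by 0.87 (adjusted p = 0.00122) and by 0.82 (adjusted p = 0.00274) on the log2 scale with Dicretin. The bile acid receptor gene Nr1h4 fell by 1.0 (adjusted p = 0.000189), and Abcb4, which secretes phosphatidylcholine into bile beside the sterolins, by 0.53 (adjusted p = 0.011). Atp8b1, a canalicular phospholipid flippase, rose by 0.83 with calorie restriction (adjusted p = 0.0111). It was also the gene that rose with Semaglutide, a call lost without saline liver 50 (adjusted p = 0.0671) or 73 (adjusted p = 0.0622).

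Enzymes that make or remove oxysterols, the ligands of LXR, were also measured. Of 8 tested, 1 rose and 3 fell with Dicretin against saline, beside 36.7% of all genes passing, with a median of -0.76. With Semaglutide 1 rose, beside 1.56% of all genes higher, and with calorie restriction 1, beside 3.42%. The medians there were -0.15 and 0.33. Cyp39a1, an oxysterol hydroxylase, averaged 185.6 ± 17 CPM in Dicretin and 25.8 ± 5.01 CPM in saline livers (log2 fold change 2.85 ± 0.24, adjusted p = 7.53e-08). It was also the 1 gene called with calorie restriction (log2 fold change 0.82, adjusted p = 0.0344), a call lost in 5 of the fits that left out a library. Cyp27a1, the enzyme that makes 27-hydroxycholesterol, fell by 0.83 on the log2 scale with Dicretin (adjusted p = 0.000475) and the bile acid synthesis enzyme gene Hsd3b7 by 1.64 (adjusted p = 4.58e-05). Cyp7b1, which clears oxysterols, rose by 1.27 with Semaglutide (adjusted p = 0.00405).

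**Figure D4:**
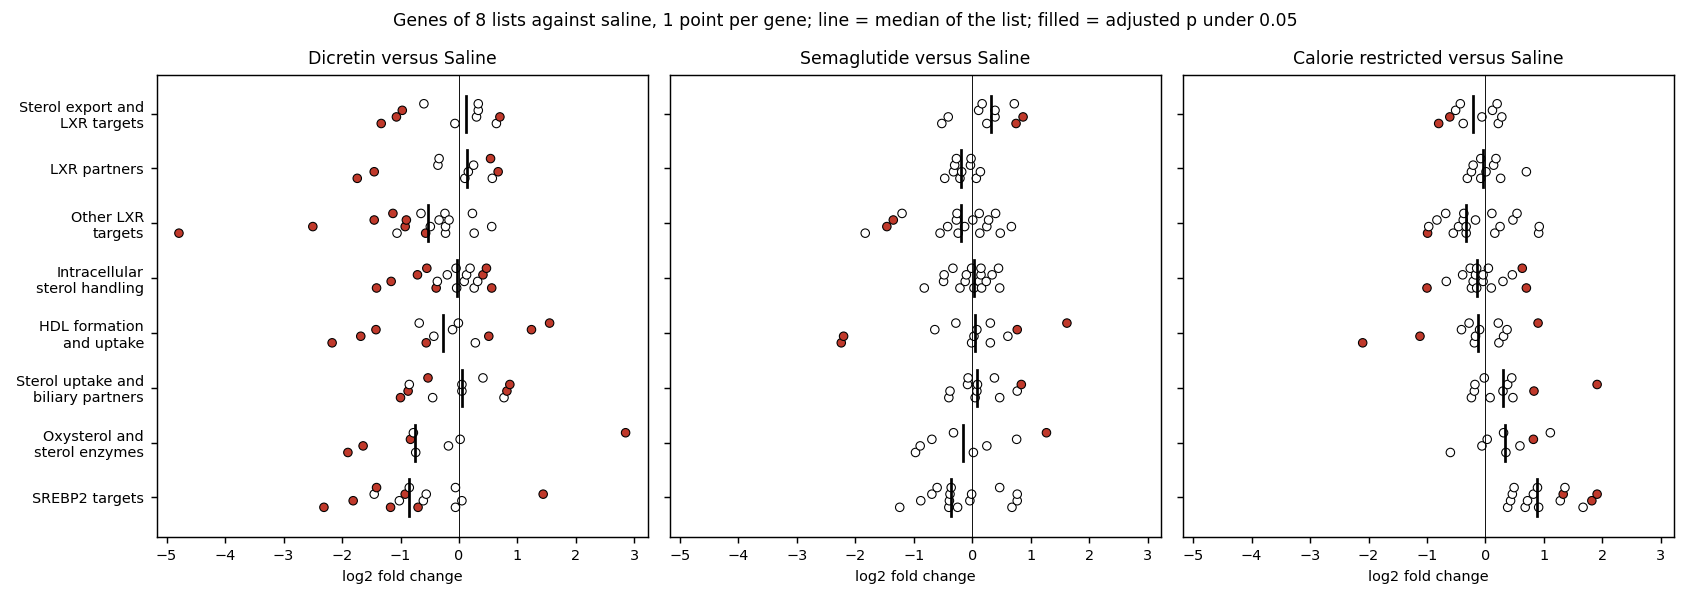
Log2 fold changes against saline for Dicretin, Semaglutide and calorie restriction, with 1 point per gene, a line at each list's median and filled points for genes that passed. The 15 SREBP2 target genes have medians of -0.85, -0.36 and 0.89.

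Targets of SREBP2, the factor that drives cholesterol synthesis when membrane sterol is low, were mostly lower in Dicretin than in calorie-restricted livers. Of 15 tested, 1 rose and 6 fell with Dicretin against saline, with a median of -0.85, beside 17.5% of all genes higher and 19.2% lower. With Semaglutide 0 passed, beside 4.18% of all genes, and the median was -0.36. With calorie restriction 3 rose, beside 3.42% of all genes higher, and the median was 0.89. All 15 had a positive log2 fold change with calorie restriction. Insig1, the sterol-dependent brake on cholesterol synthesis, rose by 1.33 with calorie restriction (adjusted p = 0.00341) and fell by 0.92 with Dicretin (adjusted p = 0.00803). Hmgcs1 fell by 2.31 with Dicretin (adjusted p = 0.000179), on the log2 scale. Pmvk, a mevalonate pathway kinase, was the 1 gene that rose, at 68.3 ± 48.0 CPM with Dicretin and 25.1 ± 3.17 CPM with saline (log2 fold change 1.44 ± 0.42, adjusted p = 0.0125), a call lost without Dicretin liver 14 (log2 fold change 0.86, adjusted p = 0.0613). In Dicretin against calorie-restricted livers 12 of the 15 were lower, and in Semaglutide against calorie-restricted livers 4 were, with medians of -1.88 and -1.07, where 16.2% and 3.07% of all genes were lower. Of the 4 Semaglutide calls, that on Sqle was lost in 13 of the other settings, that on Hmgcs1 in 5 and that on Mvd in 4, while that on Srebf2 was kept. Srebf2 itself had -1.38 ± 0.23 with Dicretin (adjusted p = 0.000185) and -1.06 ± 0.23 with Semaglutide (adjusted p = 0.00895) against calorie restriction. In the same comparisons Abcg5 had 1.31 and 1.37.

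Cell type markers were set beside these values. Of the 12 Kupffer cell and macrophage markers, 0 passed with Dicretin or Semaglutide against saline, 2 were lower with calorie restriction, and 9 were higher in Dicretin than in calorie-restricted livers. Of all genes, 36.7% passed with Dicretin and 4.18% with Semaglutide against saline. Of all genes, 4.11% were lower with calorie restriction than with saline, and 15.1% were higher in Dicretin than in calorie-restricted livers. Clec4f, which marks Kupffer cells, averaged 100.3 CPM in Dicretin and 31.3 CPM in calorie-restricted livers (log2 fold change 1.67, adjusted p = 0.00458). In Semaglutide against calorie-restricted livers 0 of 12 passed, beside 6.12% of all genes, but all 12 had a positive log2 fold change, with a median of 0.49. The part of macrophage content in the differences of either drug group from calorie restriction was not tested.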

How the data were processed

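Liver RNA of 16 mice in 4 groups was sequenced from poly(A) directional libraries, per the labels' protocols. The deposited table holds raw read counts per Ensembl gene. Per the submitters' processing notes the authors used TopHat2 2.1.1, featureCounts and genome build mm10. The strand setting and annotation release are not given in the sources used here. Of 46078 IDs, 45143 matched a symbol in the reference tables. Unmatched IDs, with 0.0335% to 0.0509% of a library's reads, were kept in the totals and tests. The table holds no mitochondrial reads.

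Counts were filtered with filterByExpr (minimum 10), scaled by TMM and fitted with edgeR 4.0.16 (R 4.3.3), quasi-likelihood with robust estimation, over all 16 libraries with 1 mean per group, and p-values were adjusted by Benjamini-Hochberg over 12910 genes with a threshold of 0.05. The common biological coefficient of variation was 0.24. Standard errors are the log2 fold change divided by the root of the F statistic, intervals are 2 standard errors, and CPM use TMM-scaled totals. Levels per kilobase use the length of the merged exons. Counts of reads set the precision: a member had at least 40 reads in each library. The log2 ratio of Abcg5 to Abcg8 was tested by exact two-sided permutation (scipy 1.17.1). The procedure was tested on simulated data.

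Samples were grouped by the treatment label. Members and gene lists were chosen with earlier results of these data known. All members were named, with up to 4 tested genes of smallest p from each other list, the 5 genes nearest in pattern to Abcg5, Abcg8 and Abca1, genes that overlap a member, and marker sums; Rxra, Npc2, Pmvk and Clec4f were named after their values were seen. Alternatives were other scaling factors, DESeq2 1.42.0, limma-voom (limma 3.58.1), other filters, only the 2 groups compared, and leaving out each library or both Semaglutide 11 and Dicretin 14. No label sets Semaglutide 11 or Dicretin 14 apart from its group. Gene positions are from GRCm38 with GENCODE M21, and promoter sequences from RefSeq on GRCm38.p6.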

Additional observations from a re-analysis of the deposited data

Results flagged for a closer look

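Of 44 sets of 4 livers examined, 4 held a liver far from the other 3, at a gap that chance gives in about 1 in 20 sets. Abcg5 stood at 215.2 CPM in Dicretin liver 23, with its mates between 140.8 and 146.5 CPM. In saline liver 78 Abcg8 stood at 138.5 CPM, against 103.4 to 106.3 CPM in the other saline livers. Lpcat3 in the same liver was the lowest of its group, at 96.85 CPM against 122.4 to 125.1 CPM, and Scarb1 the highest, at 224.4 CPM against 147.2 to 160.4 CPM.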

How the results depend on the processing

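Calls on the members were lost only on leaving out a library, in 16 values. These were for Abcg5 and Abcg8 with calorie restriction against saline and for Npc1 between Dicretin and calorie restriction. Another 912 values kept their status and direction, but most of these had not passed to begin with, so 912 is not a count of calls kept. Leaving out a library gave 4 to 5 members passing for Dicretin, 2 to 3 for Semaglutide and 0 to 3 for calorie restriction against saline, 4 to 5 for Dicretin and 3 to 4 for Semaglutide against calorie restriction, and 3 to 4 for Dicretin against Semaglutide. The counts over all genes were 3921 to 5350, 256 to 778, 502 to 1368, 3262 to 4597, 445 to 1167 and 3580 to 4240, in the same order. DESeq2 called 982 genes for Semaglutide and 1528 for calorie restriction against saline, and 1292 for Semaglutide against calorie restriction. With only the groups compared in the fit, calorie restriction against saline had 2569 genes and 4 members, with Npc1 (adjusted p = 0.0134) and Lpcat3 (adjusted p = 0.0149) added, and Dicretin against Semaglutide had 2658 genes. Without Semaglutide 11 and Dicretin 14, calorie restriction against saline had 1880 genes, and directions turned for Abca1 (-0.08 for Dicretin and 0.04 for Semaglutide against calorie restriction, -0.12 for Dicretin against Semaglutide), Nr1h3 (-0.11 for Semaglutide against calorie restriction, 0.29 for Dicretin against Semaglutide) and Mylip (0.10 for Semaglutide against calorie restriction), none of them called. The cause was not tested.

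Leaving out 1 library also turned the sign of log2 fold changes that had not passed. These ranged over -0.20 to 0.12 (Scarb1) for Dicretin, -0.07 to 0.30 (Mylip) for Semaglutide, and -0.02 to 0.33 (Mylip) and -0.15 to 0.10 (Scarb1) for calorie restriction against saline. Against calorie restriction they ranged over -0.08 to 0.26 (Abca1) and -0.05 to 0.18 (Nr1h3) for Dicretin, and -0.20 to 0.04 (Abca1), -0.11 to 0.20 (Nr1h3), -0.29 to 0.19 (Mylip) and -0.02 to 0.18 (Lpcat3) for Semaglutide. For Dicretin against Semaglutide they ranged over -0.22 to 0.01 (Abcg5), -0.16 to 0.14 (Abcg1) and -0.15 to 0.16 (Nr1h3). Rmc1 between Dicretin and saline, near 0, ranged over -0.10 to 0.09, and was 0.01 with DESeq2 or its size factors or without the 20 most abundant genes, 0.02 with no filter, and 0.05 without Semaglutide 11 and Dicretin 14. The log2 ratio of Abcg5 to Abcg8 differed by -0.02 to 0.10 for Semaglutide, 0.29 to 0.52 for Dicretin and 0.07 to 0.37 for calorie restriction against saline, 0.07 to 0.37 for Dicretin and -0.33 to -0.03 for Semaglutide against calorie restriction, and 0.25 to 0.48 for Dicretin against Semaglutide. No paired analysis was possible because no animal number occurs in more than 1 group.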

Other observations

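Markers of other liver cells gave the following summed levels. Sinusoidal endothelial markers (7 genes) summed to 174.7 ± 44.8 CPM in Dicretin, 145.4 ± 31.0 CPM in Semaglutide, 166.9 ± 21.9 CPM in calorie-restricted and 163 ± 21.4 CPM in saline livers (SD, n = 4 each). Stellate cell markers (8 genes) summed to 263.6 ± 36.3 CPM in Dicretin, 332.2 ± 32.7 CPM in Semaglutide, 318.2 ± 28.9 CPM in calorie-restricted and 342.8 ± 71.2 CPM in saline livers. Cholangiocyte markers (5 genes) were lower in sum in every Dicretin liver, at 28.5 to 49.8 CPM, than in any saline liver, at 63.1 to 81.3 CPM. Between these groups 1 of the 5 genes passed, beside 36.7% of all genes. That gene was Spp1, which is also on the lipid-associated macrophage list and made up most of the sum, at a mean of 32.4 of 37.0 CPM in Dicretin and 60.2 of 72.9 CPM in saline livers. Lipid-associated macrophage markers (6 genes) summed to 72.0 ± 2.99 CPM in Dicretin, 64.2 ± 24.2 CPM in Semaglutide, 56.2 ± 10.5 CPM in calorie-restricted and 75.9 ± 15.2 CPM in saline livers. With Dicretin against saline 1 of these 6 rose, Cd9, at a mean of 29.6 CPM in Dicretin and 7.88 CPM in saline livers, and 1 fell, Spp1 (edgeR's quasi-likelihood test, adjusted p = 5.59e-06 and 0.011). Of all genes 17.5% were higher and 19.2% lower there. T and B cell markers (7 genes) summed to between 1.90 and 7.94 CPM in all livers.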
